A study of Mus musculus with 2 samples.

Results

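The genes described here are the granzymes Gzma, Gzmb, Gzmc and Gzmk, the pore-forming protein Prf1, the granule protein Nkg7, the lectin-like receptors Klrg1, Klrk1 and Klrd1, and the co-receptor Cd8a. They were chosen by symbol, and all 10 are among the 24346 symbols listed in both libraries. The cells were GFP+CD4+ cells of FDG mice (Foxp3-DTR-GFP), in which a fusion of the diphtheria toxin receptor and GFP is expressed from the Foxp3 locus, so that GFP marks regulatory T cells (Tregs). Mice aged 10 to 16 weeks received 50 μg of bleomycin (BLM) into the trachea, a model of lung injury and fibrosis, and the cells were sorted on day 15 from spleen and from lung. Each tissue gave 1 library, made from cells pooled over 3 mice. Both groups carry the same allele and received the same treatment, and no library of untreated mice or of GFP-negative CD4+ cells was used here. The comparison of lung with spleen therefore concerns the tissue of origin in BLM-treated mice only. There is thus no measure of the spread between mice, and differences are given without p-values.

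Cytotoxic lymphocytes kill by releasing granules. Perforin opens the membrane of the target cell to granzymes, serine proteases that cleave proteins inside it, and lectin-like receptors of the NK gene complex adjust whether release takes place. These genes are best known from NK cells and CD8+ T cells, but Tregs can also express them, and granzyme B with perforin is a known route by which Tregs act on other cells. KLRG1 is known as a receptor of effector Tregs in tissues.

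Levels are FPKM, fragments per kilobase of transcript corrected for library size, which allows levels of different genes to be compared. They are levels of a whole sorted library. Markers of other cells were also found there, such as the macrophage marker Lyz2 at 24947 FPKM in lung. Among the genes described here Gzmb had the largest ratio of lung to spleen, 8.40-fold, followed by Gzmk at 6.42-fold and Klrg1 at 4.93-fold. Gzma, Prf1 and Nkg7 were higher by less than 2-fold. Gzmc was 10.8-fold lower and Klrk1 1.43-fold lower. "Higher" and "lower" refer here to a ratio between 2 libraries and not to a test. The number of reads behind each FPKM was estimated from transcript lengths, and 95% intervals of a ratio come from the exact binomial distribution of these reads. The intervals of Gzmb and Gzmk overlapped, as did those of Gzmk and Klrg1, so the place of Gzmk in the order of ratios is uncertain. All intervals cover the counting error of reads only. PCR copies of a molecule were not distinguished, so the intervals can be too narrow. They also do not hold the variation between mice or sorts.

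The granzymes lie in 2 groups of tandem genes, on the minus strand in all cases. In the mm10 (GRCm38) build Gzmb spans chr14:56258838-56262260 and Gzmc chr14:56231441-56234656, with 24.2 kb between them, and each has 5 exons. Gzma (chr13:113093827-113100981) and Gzmk (chr13:113171638-113180897) also have 5 exons each and lie 70.7 kb apart. Because the ratios of Gzmb and Gzmc lay on opposite sides of 1, the sequence by which their reads can be told apart is shown. It is the most similar stretch of 75 coding bases, the length of 1 read, in exon 4 of both genes. The Gzmb stretch lies at chr14:56260356-56260430 and the Gzmc stretch at chr14:56232413-56232487, both read on the minus strand from GRCm38, and capitals mark the bases that differ.
Gzmb: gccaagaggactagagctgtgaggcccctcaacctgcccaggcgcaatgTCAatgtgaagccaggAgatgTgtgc
Gzmc: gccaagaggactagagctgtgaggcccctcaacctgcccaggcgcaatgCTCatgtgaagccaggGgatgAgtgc
The stretches share 70 of 75 bases, 93.3%, and 5 differ. None of the 75-base windows of any of the 10 genes (0 of 1362 in Gzmb and 0 of 820 in Gzmc) occurs unchanged in a transcript of another gene. Gzmc is closer still to Gzme and Gzmg, with 74 of 75 bases shared at best, and to Gzmd with 73. With relatives that differ by as little as 1 base per read, the few Gzmc reads are uncertain. Gzma and Gzmk shared at most 55 of 75 bases.

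The windows of 250 bases before the transcript start are shown for the granzymes with the largest differences, as RefSeq gives them (GRCm38.p6). Capitals mark matches on either strand to letters bound by regulators of cytotoxic genes, TGTGGT for RUNX factors, TCACAC for T-box factors, TGANTCA for AP-1 and GAAAGT for BLIMP-1. The Gzmb window is chr14:56262335-56262584, the Gzmc window chr14:56234658-56234907 and the Gzmk window chr13:113180966-113181215, all on the minus strand.
Gzmb: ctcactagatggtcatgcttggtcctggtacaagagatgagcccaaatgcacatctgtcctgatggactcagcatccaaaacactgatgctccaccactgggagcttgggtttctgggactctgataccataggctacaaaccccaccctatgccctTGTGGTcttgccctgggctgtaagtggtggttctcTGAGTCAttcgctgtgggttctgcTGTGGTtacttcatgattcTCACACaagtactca
Gzmc: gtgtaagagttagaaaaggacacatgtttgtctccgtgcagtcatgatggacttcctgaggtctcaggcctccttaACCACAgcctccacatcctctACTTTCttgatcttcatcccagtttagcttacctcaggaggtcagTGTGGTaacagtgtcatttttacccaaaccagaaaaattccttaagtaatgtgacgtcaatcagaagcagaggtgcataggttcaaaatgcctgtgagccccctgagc
Gzmk: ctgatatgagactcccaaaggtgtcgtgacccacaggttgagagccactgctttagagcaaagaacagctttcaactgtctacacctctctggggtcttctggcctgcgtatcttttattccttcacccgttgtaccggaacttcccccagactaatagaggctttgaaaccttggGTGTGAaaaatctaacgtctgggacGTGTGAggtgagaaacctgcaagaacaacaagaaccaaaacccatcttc
The Gzmb window held 2 RUNX matches, 1 AP-1 match and 1 T-box match. The Gzmc window held 2 RUNX matches and 1 BLIMP-1 match, and the Gzmk window held 2 T-box matches. No matches overlap in these windows. A RefSeq window was at hand for 8 of the 10 genes, all but Klrg1 and Klrd1. RUNX letters were in 6 of these 8 windows and in 14.0% of all 32851 windows of this length. T-box letters were in 3 of 8 and in 12.3% of all, BLIMP-1 letters in 2 of 8 (Gzmc and Klrk1) and in 12.3% of all, and AP-1 letters in 1 of 8 (Gzmb) and in 6.75% of all. A match is a description of the letters and shows no binding.

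Gzmb encodes granzyme B, which cleaves after aspartate and activates caspases. It had 7.51 FPKM in the splenic library and 63.1 FPKM in the lung library, from about 96 and 911 reads. The ratio was 8.40 (95% counting interval 6.77 to 10.4), and 93.2% of all genes with 1 FPKM or more in at least 1 of the libraries had a lower ratio. By rank among the symbols of each library, Gzmb moved from 7350 in spleen to 1843 in lung. It was the third most abundant of the 10 genes in lung and the fourth in spleen.

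Gzmk encodes granzyme K, a protease that cleaves after basic residues. Its level was 3.47 FPKM in spleen and 22.3 FPKM in lung, from 29 and 215 reads, a ratio of 6.42 (4.42 to 9.99). Its neighbour Gzma encodes granzyme A, which has a like cleavage preference. Gzma had 13.1 FPKM in spleen and 19.5 FPKM in lung, from 91 and 154 reads, a ratio of 1.49 (1.14 to 1.95). The neighbouring genes thus differed in size of change, and their counting intervals do not overlap. Gzmk was at 0.265 times the Gzma level in spleen and at 1.14 times in lung.

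Gzmc encodes granzyme C, a granzyme of strongly activated killer cells. It had 2.52 FPKM in spleen and 0.234 FPKM in lung, from 18 and 2 reads, and was 10.8-fold lower in lung (2.45 to 90.8). The wide interval comes from the 2 lung reads. Gzmc is the granzyme nearest to Gzmb, and the level of Gzmb was 2.97 times that of Gzmc in spleen and 270 times in lung.

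Together the 4 granzymes amounted to 26.6 FPKM in the splenic library and 105 FPKM in the lung library. The make-up of this sum differed between tissues. Gzma made up 49.3% of it in spleen and 18.6% in lung, whereas Gzmb made up 28.2% in spleen and 60.02% in lung. Gzmk made up 13.0% in spleen and 21.2% in lung, and Gzmc 9.49% in spleen and 0.223% in lung. These shares do not depend on how the libraries are scaled to each other. Granzyme A was the leading granzyme of the splenic library and granzyme B of the lung library.

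Prf1 (chr10:61297833-61304680, plus strand, 3 exons) encodes perforin. It had 6.38 FPKM in spleen and 9.80 FPKM in lung, from 150 and 261 reads, a ratio of 1.54 (1.25 to 1.89). Perforin therefore differed less than Gzmb, and the level of Gzmb relative to Prf1 went from 1.18 in spleen to 6.44 in lung. Nkg7 (chr7:43437073-43438249, plus strand, 4 exons) encodes a membrane protein of cytotoxic granules that takes part in their release. At 134 FPKM in spleen and 236 FPKM in lung, from 934 and 1864 reads, it was the most abundant of the 10 genes in both libraries. Its ratio was 1.76 (1.62 to 1.90), the narrowest interval of the set.

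**Figure D1:**
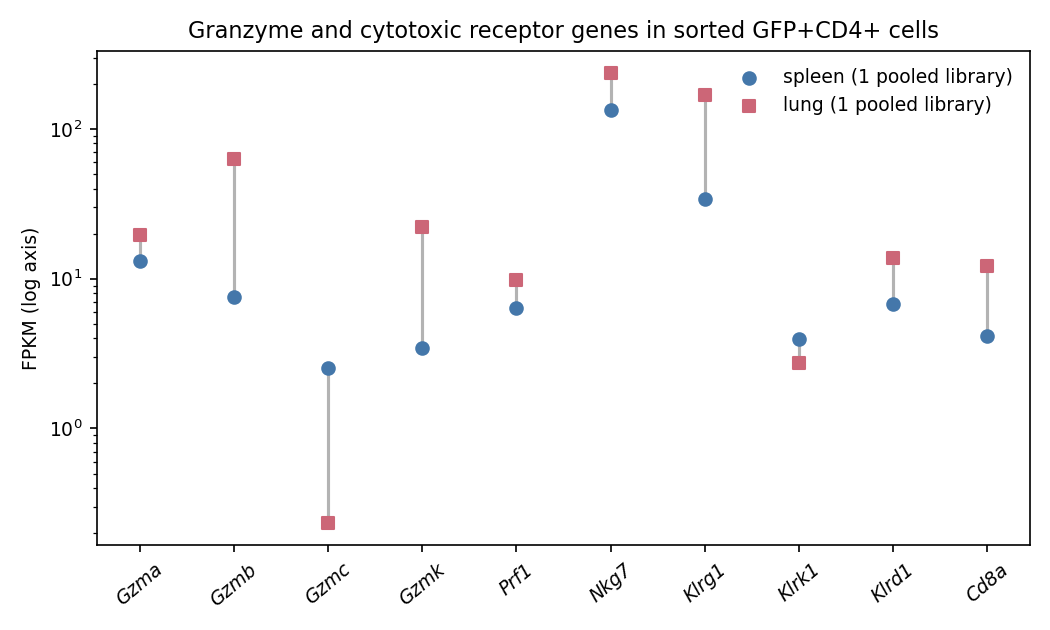
Level of each of the 10 genes in FPKM on a log axis, with a circle for the 1 splenic library and a square for the 1 lung library. The squares lie above the circles for 8 genes and below them for Gzmc (2.52 and 0.234 FPKM) and Klrk1 (3.95 and 2.76 FPKM).

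Klrg1 (chr6:122270596-122282882, minus strand, 5 exons) encodes an inhibitory receptor for cadherins. It had 34.2 FPKM in the splenic library and 169 FPKM in the lung library, from 428 and 2392 reads, a ratio of 4.93 (4.44 to 5.47). It was the second most abundant gene of the set in both libraries. Relative to Cd4, whose level was 195 FPKM in spleen and 179 FPKM in lung, Klrg1 went from 0.175 to 0.944. Klrg1 was thus nearly as abundant as Cd4 in the lung library.

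Klrd1 (chr6:129591782-129598775, plus strand, 6 exons) encodes CD94, which forms receptors for the class I-like molecule Qa-1 with NKG2 proteins. It had 6.74 FPKM in spleen and 13.7 FPKM in lung, from 48 and 111 reads. Its ratio of 2.03 (1.44 to 2.92) lies at the 2-fold limit, which it passed in 5 of 8 alternative settings. Klrk1 (chr6:129610323-129623864, minus strand, 8 exons) lies 11.55 kb from Klrd1 and encodes NKG2D, an activating receptor for stress-induced ligands. It had 3.95 FPKM in spleen and 2.76 FPKM in lung, from about 43 and 34 reads, and was 1.43-fold lower in lung with an interval of 0.894 to 2.32, which holds 1. Klrk1 has transcripts of different lengths, and its reads and interval depend on the length assumed. With the shortest it had 33 and 26 reads and an interval of 0.836 to 2.51, and with the longest 122 and 97 reads and an interval of 1.08 to 1.88, which does not hold 1. Whether Klrk1 differed beyond counting error is therefore not settled by these values. The ratio of Klrg1 to Klrk1 was 8.67 in spleen and 61.2 in lung.

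Cd8a (chr6:71373427-71379173, plus strand, 4 or 5 exons) encodes the α chain of the CD8 co-receptor of cytotoxic T cells, and also occurs on some dendritic cells. It had 4.13 FPKM in spleen and 12.2 FPKM in lung, from 122 and 407 reads, a ratio of 2.94 (2.39 to 3.63). Cd8b1, the β chain that marks the CD8 co-receptor of T cells, moved with it from 19.9 FPKM in spleen to 74.8 FPKM in lung. Cd8b1 stood at 4.81 times the Cd8a level in spleen and at 6.14 times in lung, and Cd4 at 47.2 times and 14.7 times. Relative to Cd8b1, Cd4 stood at 9.82 times in spleen and at 2.39 times in lung. Both CD8 chains were thus below Cd4 in both libraries, by less in lung. The methods give CD4 and GFP as the gate of this sort and name no exclusion of CD8+ cells. The part of CD8+ T cells in the other values was not tested, and in bulk samples fewer cells of a type and less RNA per cell cannot be told apart.

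Over the set, 10 of 10 genes reached 1 FPKM in at least 1 library, the minimum for a gene to be counted. Of these, 5 were over 2-fold higher in lung (Gzmb, Gzmk, Klrg1, Cd8a and Klrd1), against a background of 17.8% of the 12094 genes counted. Only Gzmc was over 2-fold lower, against 15.5% of all. In all, 8 genes of the set had a ratio above 1, against 51.5% of all. The median log2 ratio was 0.92 over the set and 0.03 over all genes counted. Counting intervals lay above 1 for 8 genes and above 2 for 4 of them (Gzmb, Gzmk, Klrg1 and Cd8a). Intervals were computed for the 10 genes only, so no share over all genes stands beside these counts. None of the 10 (0) exceeded a 20-fold difference in either direction, the limit used by the study. Over all genes counted 3.27% were over 20-fold higher and 2.35% over 20-fold lower, so 0 of 10 is close to these shares. The 10 genes were chosen by name with earlier results of these data known, so these counts are descriptions.

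The directions of Gzma, Prf1, Nkg7 and Klrd1 depend on what the libraries are scaled to. Foxp3 itself had 18.7 FPKM in spleen and 41.8 FPKM in lung, a ratio of 2.23. Relative to Foxp3, the log2 ratios became −0.58 for Gzma, −0.54 for Prf1, −0.34 for Nkg7 and −0.14 for Klrd1. Gzmb at 1.91, Gzmk at 1.52 and Klrg1 at 1.14 remained over 2-fold higher, and Cd8a at 0.40 remained higher. Over all genes counted, 15.5% were higher relative to Foxp3 and 9.41% over 2-fold higher. Cd3e, a chain of the T cell receptor complex, went the other way, from 513 FPKM in spleen to 369 FPKM in lung. Relative to Cd3e all 8 genes that were higher in lung were over 2-fold higher, against 29.4% of all genes counted. They ranged from 1.05 for Gzma to 3.55 for Gzmb, and Klrk1 stood at −0.04. Rescaling to TPM, in which each library sums to the same total, shifted all log2 ratios by −0.43 and left every direction as it was, with Gzma at 0.14 and Prf1 at 0.19. Gzmb, Gzmk and Klrg1 were thus over 2-fold higher and Gzmc over 2-fold lower under each of these 4 scalings, while the other genes crossed the 2-fold limit or 1 under at least 1 of them.

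**Figure D2:**
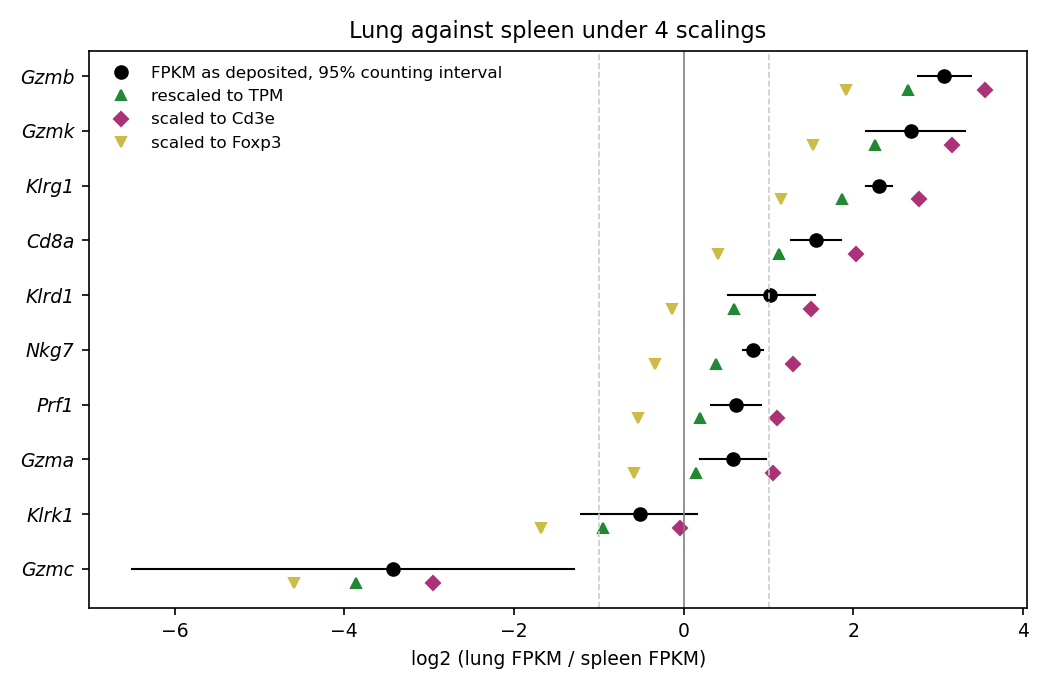
Log2 ratio of lung to spleen FPKM for each gene, with black circles and bars for the deposited FPKM and the 95% counting interval, triangles for TPM, diamonds for values relative to Cd3e and inverted triangles for values relative to Foxp3. Dashed lines mark 2-fold. Gzmb, Gzmk and Klrg1 lie right of the 2-fold line under each scaling, and Gzma, Prf1, Nkg7 and Klrd1 lie left of 0 relative to Foxp3.

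The order of levels also differed between the libraries. In spleen it ran from Nkg7, Klrg1 and Gzma through Gzmb, Klrd1 and Prf1 to Cd8a, Klrk1, Gzmk and Gzmc. Counting intervals of neighbours in this order overlapped within the group of Gzmb (6.11 to 9.21 FPKM), Klrd1 and Prf1, and within the group from Cd8a to Gzmc, and did not overlap elsewhere. In lung the order was Nkg7, Klrg1, Gzmb, Gzmk, Gzma, Klrd1, Cd8a, Prf1, Klrk1 and Gzmc. There the neighbours Gzmk (19.4 to 25.5 FPKM) and Gzma (16.6 to 22.9 FPKM) overlapped, as did Klrd1 with Cd8a and Cd8a with Prf1. Gzmk moved from the ninth to the fourth place.

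Other genes of the granzyme clusters were near 0. Gzmd, Gzme, Gzmg and Gzmn were listed at 0 in both libraries, and Gzmf had 0.138 FPKM in spleen, about 1 read, and 0 in lung. Within 160 kb of the Gzmb start, 8 other genes are listed, of which 0 reached 1 FPKM and 6 were at 0 in both libraries. Gzmb and Gzmc were thus the only genes of their cluster that reached 1 FPKM in a library. Gzmm, which encodes granzyme M and lies elsewhere in the genome, had 0.735 FPKM in spleen and 2.44 FPKM in lung, from 8 and 31 reads, a ratio of 3.32. It was the only one of the 6 other granzymes to reach 1 FPKM. Around Klrk1, 6 of 12 other genes reached 1 FPKM. Of these, 3 were over 2-fold higher (Clec7a, Olr1 and Gabarapl1), against 17.8% of all genes counted. Only Klrc2 was over 2-fold lower, against 15.5% of all, and Klre1 and Klrc1 were lower by less than 2-fold.

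**Figure D3:**
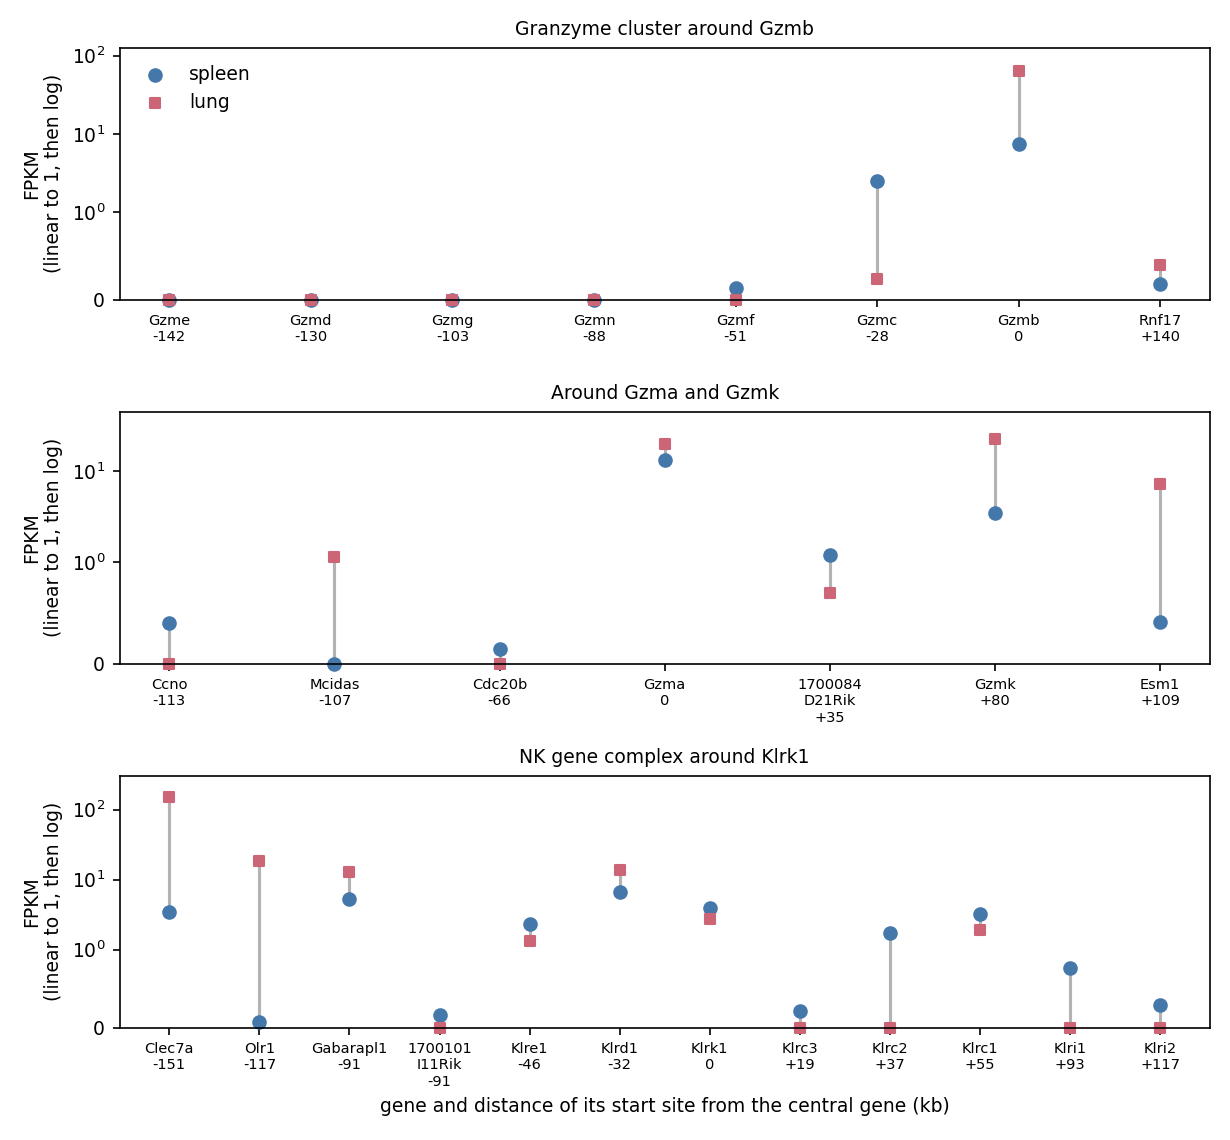
FPKM of genes around Gzmb (top), Gzma (middle) and Klrk1 (bottom) in spleen (circles) and lung (squares), ordered by the distance of their start sites from the central gene in kb, on an axis that is linear to 1 FPKM and logarithmic above. Other genes at 0 in both libraries are left out except granzymes, and Gzmd, Gzme, Gzmg and Gzmn lie at 0 beside Gzmb at 63.1 FPKM in lung.

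Genes that build and release granules were higher in part. Of 11 such genes 10 reached 1 FPKM, with 4 over 2-fold higher in lung, 0 over 2-fold lower and a median log2 ratio of 0.61. Srgn, whose proteoglycan serglycin packs granzymes, had 691 FPKM in spleen and 1437 FPKM in lung (2.08-fold). Ctsc, whose protease cathepsin C activates granzymes, had 92.8 and 219 FPKM (2.36-fold). Both were thus just over 2-fold higher, as were Lamp1, a protein of the granule membrane, at 179 and 360 FPKM (2.01-fold) and Stx11, a syntaxin of granule release, at 29.8 and 64.4 FPKM (2.16-fold). After rescaling to TPM 0 of the 10 were over 2-fold higher, and relative to Foxp3 only Ctsc stayed above 1 (log2 ratio 0.08). Myeloid cells express these 4 genes too. Among 5 inhibitors of granzymes and of death proteases 4 reached 1 FPKM, and Serpinb9, which blocks granzyme B, was over 2-fold higher at 12.7 FPKM in spleen and 26.1 FPKM in lung (2.05-fold), but 0 of the 4 were over 2-fold higher under TPM. Of 5 ligands of the TNF family, some of which can kill without granules, 0 were over 2-fold in either direction. Their median log2 ratio was −0.03. Ltb, the most abundant but not known as a killing ligand, stood at 600 and 535 FPKM.

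Of 22 other lectin-like receptors of the NK gene complex and their relatives, 10 reached 1 FPKM, 4 were over 2-fold higher and 3 over 2-fold lower, with a median log2 ratio of −0.25. Klrb1f, an activating relative of NK1.1, had 1.67 FPKM in spleen and 5.49 FPKM in lung (3.28-fold). For the NKG2 partners of CD94, named here after their values had been seen, Klrc1 had 3.26 FPKM in spleen and 1.91 FPKM in lung, from 16 and 11 reads. Klrc2 had 1.74 FPKM in spleen, from 9 reads, and was listed at 0 in lung. With 3 reads taken as its lung level it was 3.44-fold lower, a value that leaves out counting error. Values of the partners thus lay on the other side of 1 from that of Klrd1. Low levels make the receptors of this family uncertain, and some of them are near-identical copies whose reads could be split between genes.

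Adaptors that carry the signal of these receptors numbered 6, and all of them reached 1 FPKM. Tyrobp (DAP12), an adaptor of NKG2D and of many myeloid receptors, had 189 FPKM in spleen and 1271 FPKM in lung (6.73-fold). Fcer1g, the γ chain of Fc receptors, had 116 and 710 FPKM (6.15-fold). No other adaptor of the list was over 2-fold, and Hcst (DAP10), the main partner of NKG2D in T cells, was at 466 and 677 FPKM (1.45-fold). Of 13 ligands 12 are listed, 4 reached 1 FPKM, 1 was over 2-fold higher and 1 over 2-fold lower. H2-T23, which encodes the Qa-1 ligand of CD94 receptors, had 440 FPKM in spleen and 551 FPKM in lung (1.25-fold). Cdh1, the E-cadherin ligand of KLRG1, had 0.252 and 1.11 FPKM.

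Transcription factors of the cytotoxic programme were 10, of which 9 are listed. All 9 reached 1 FPKM, 6 were over 2-fold higher and 1 was over 2-fold lower, with a median log2 ratio of 1.28. Id2, an inhibitor of E proteins in effector cells, had 171 FPKM in spleen and 738 FPKM in lung (4.31-fold). Hopx had 142 and 359 FPKM (2.53-fold), Bhlhe40 53.3 and 129 FPKM (2.43-fold) and Batf, an AP-1 factor of effector Tregs, 117 and 244 FPKM (2.08-fold). Under TPM 3 of the 9 factors were over 2-fold higher (Id2 at 1.68 on the log2 scale, Zeb2 and Prdm1), and relative to Foxp3 Id2 was at 0.95 and Batf at −0.10. As background, several of these factors are also known from effector Tregs. The other members of the list are named here after their values had been seen. Prdm1, which encodes BLIMP-1, had 5.79 and 16.03 FPKM, and Runx3 was 1.89-fold higher from 10.6 FPKM in spleen. The T-box factors had ratios below 1, although Tbx21 was above 1 relative to Cd3e. Tbx21 was at 8.35 and 7.83 FPKM, and Eomes, the factor of NK and memory CD8+ T cells, had 1.68 FPKM in spleen, from 52 reads, and 0.0246 FPKM in lung, from about 1 read. In the CD8 lineage list, where Cd8b1 was over 2-fold higher, Zbtb7b (ThPOK), the factor that keeps CD4+ T cells from CD8 genes, had 11.4 FPKM in spleen and 5.81 FPKM in lung.

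**Figure D4:**
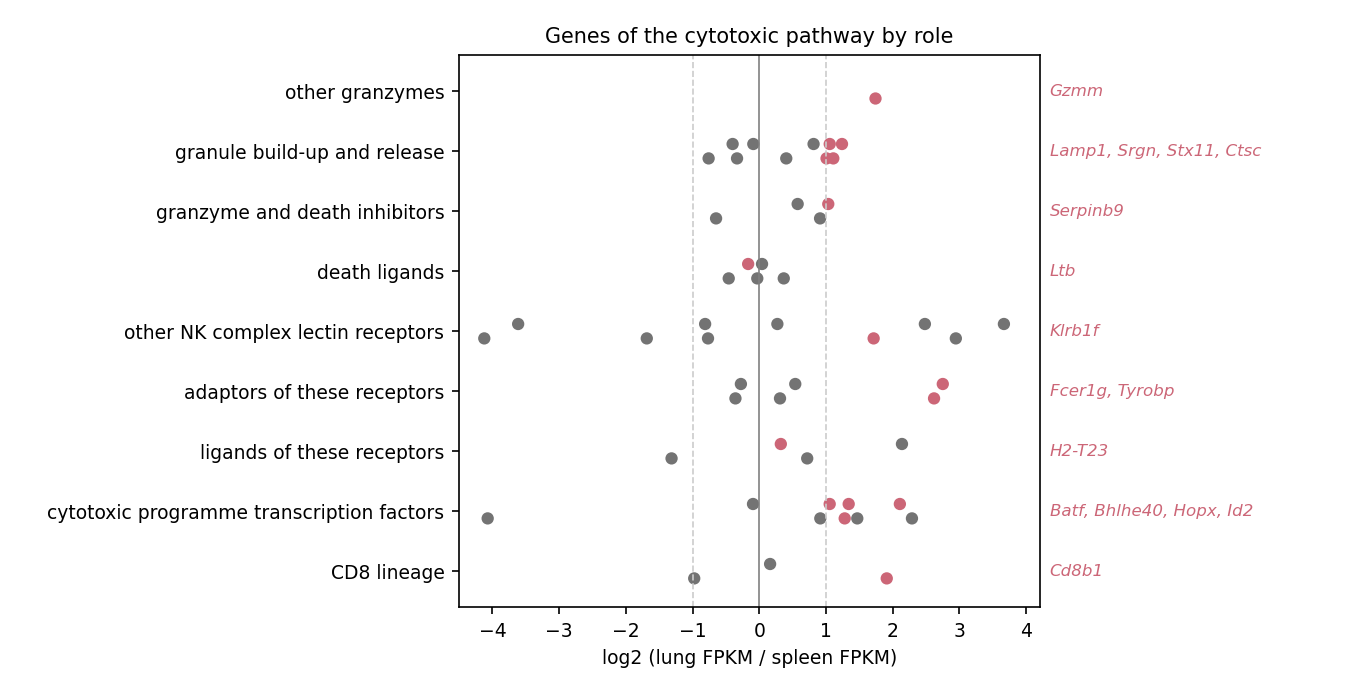
Log2 ratio of lung to spleen FPKM for the genes of 9 lists that reached 1 FPKM in a library, 1 point per gene, with dashed lines at 2-fold. Red points are the genes named at the right. Of the transcription factors 6 lie right of the 2-fold line, and the TNF family ligands (list labelled death ligands) lie between the lines.

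Because NK cells and innate lymphoid cells share most of these genes, their markers are given beside the results. Of 12 markers, 9 reached 1 FPKM, with 3 over 2-fold higher and 4 over 2-fold lower, and 3 of the 12 were at 0 in lung. Ncr1, the receptor NKp46, had 2.69 FPKM in spleen, from 35 reads, and was listed at 0 in lung. With 3 reads taken as its lung level it was 13.2-fold lower, again without counting error. Cd160 had 12.2 FPKM in spleen, from 285 reads, and 0.0377 FPKM in lung, from about 1 read. Ncr1, Cd160 and Eomes were thus at or near 0 in the lung library, but other markers of the list were not. Klrb1c, which encodes NK1.1, had 4.54 FPKM in spleen and 5.48 FPKM in lung, from 91 and 125 reads. Klre1 was at 2.33 and 1.33 FPKM, Xcl1 at 8.21 and 35.0 FPKM and Itga2 at 0.385 and 1.40 FPKM. Without Fcer1g, 3 of the 11 markers left (Klrb1c, Xcl1 and Itga2) were higher in lung and 7 were lower. The marker sum was 207 FPKM in spleen and 773 FPKM in lung. Without Fcer1g, which myeloid cells also express, it was 91.7 FPKM in spleen and 62.8 FPKM in lung. Txk, which T cells also express, was lower by more than this difference, at 59.0 and 19.4 FPKM. Without Fcer1g and Txk the sum went the other way, from 32.6 FPKM in spleen to 43.5 FPKM in lung. Xcl1 was higher by more than this rise, at 8.21 and 35.0 FPKM, while 6 of these 10 markers were lower in lung and 3 higher. The direction of the marker sum thus depends on which markers are counted, and the part of NK cells in the values of the 10 genes was not tested.

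**Figure D5:**
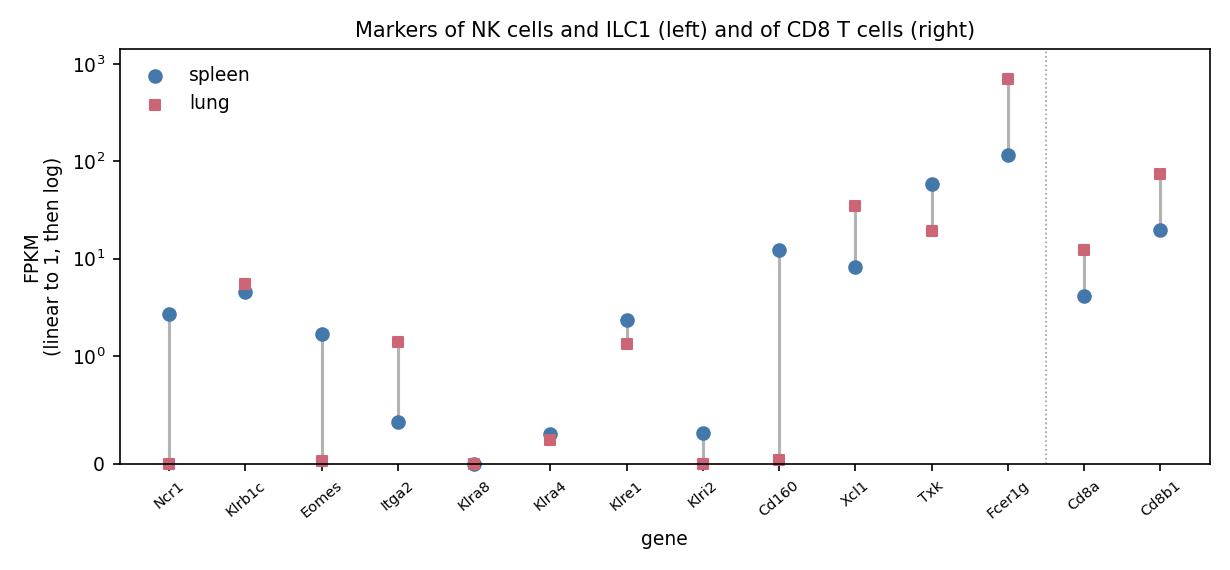
FPKM of 12 markers of NK cells and ILC1 and of the 2 CD8 chains in spleen (circles) and lung (squares), on an axis that is linear to 1 FPKM and logarithmic above. Ncr1, Eomes and Cd160 lie at or near 0 in lung, Klrb1c, Itga2, Xcl1 and Fcer1g lie higher in lung than in spleen, and Cd8a and Cd8b1 lie higher in lung.

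The sorted cells were checked against markers of Tregs and of other cells. All 7 Treg markers were present, with a sum of 1550 FPKM in spleen and 2211 FPKM in lung. Tnfrsf18 (470 and 919 FPKM) and Ctla4 (221 and 601 FPKM) were together higher by more than this difference. Of the 7 markers 3 were higher in lung, and the median log2 ratio was −0.01. The rest were lower, among them Il2ra at 89.4 and 59.1 FPKM. The 2 CD8 T cell markers summed to 24.02 and 86.9 FPKM, both over 2-fold higher in lung. The 6 macrophage markers amounted to 488 FPKM in splenic and 25412 FPKM in lung cells, most of it from Lyz2 at 376 and 24947 FPKM, and 0 of the 6 were at 0. Of these 6 markers 3 were over 2-fold higher in lung. So were Gzmb, Gzmk, Klrg1, Cd8a and Klrd1, and several genes of the pathway lists, among them Tyrobp, Fcer1g, Srgn, Ctsc and Id2. The part of macrophages in these ratios was not tested. The 5 B cell markers went from 239 to 123 FPKM, and the 6 markers of CD8α+ dendritic cells from 22.5 to 61.1 FPKM, with Clec9a and Batf3 at 0 in lung and Itgae, which Tregs of tissues also express, at 55.4 FPKM there. Plasmacytoid dendritic cell markers summed to 54.7 and 68.3 FPKM, and markers of mast cells and basophils to 3.43 and 2.95 FPKM with Mcpt4 and Mcpt8 at 0 in both. The NKT cell list summed to 90.8 and 110 FPKM. Nearly all of this came from Cd1d1 (45.1 and 49.3 FPKM) and Slamf1 (45.4 and 60.6 FPKM), which other cells also express. Zbtb16 had 0.334 FPKM in spleen and 0 in lung. Of 5 γδ T cell markers only Sox13 is listed, at 0.0290 FPKM in spleen and 0 in lung, so γδ T cells could not be assessed. Actb had 1325 FPKM in spleen and 1242 FPKM in lung.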

How the data were processed

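Bulk RNA-seq of GFP+CD4+ cells was measured in 1 splenic and 1 lung library, each pooled from 3 mice and assigned to its tissue by its label. SMART-Seq HT cDNA and Nextera XT libraries, which do not mark strand, were read as 75-base single ends. Per the submitters' processing notes, the authors used TopHat2 2.1.1, Bowtie2 2.2.8 and SAMtools 0.1.18 on the mm10 genome, and the values they deposited are FPKM from Cuffdiff 2.2.1. Annotation, Cuffdiff options and any scaling between libraries are not given in the sources used here. FPKM summed to 599633 in spleen and 808853 in lung, and 9542 and 10638 of the symbols were at 0.

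FPKM under 0.1 were set to 0.1 and lung was divided by spleen. A gene was counted if either library reached 1 FPKM, and a ratio over 2-fold was called. Reads were estimated from GENCODE M21 lengths of transcripts tied to RefSeq, found for 97.4% of symbols, with fragments of 200 ± 80 bases (mean ± SD) and at least 75. At 1 kb, 1 read was worth 0.0964 FPKM in spleen and 0.0849 FPKM in lung. The estimates summed to 9868082 and 12887506 reads, and 72.8% and 74.7% of genes with 1 to 10 reads lay within 0.1 of a whole number. Intervals are exact (Clopper-Pearson for ratios, Poisson for levels).

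All 10 genes are named whatever their values. From 9 pathway lists, genes over 2-fold with at least 10 FPKM are named, at most 4 per list by highest FPKM, or else the most abundant gene. The genes and lists, with 10 marker lists, were chosen with earlier results of these data known. Settings tried were other floors, pseudocounts, scalings, filters and folds. Scaling to Cd3e or Foxp3, leaving out Cd8a, other Klrk1 lengths and marker sums without Fcer1g and Txk were added after seeing the data. The steps were tested on simulated data. Scripts ran in Python 3.11.15 with scipy 1.17.1, pandas 2.3.3, matplotlib 3.10.9 and numpy 2.4.6.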

Additional observations from a re-analysis of the deposited data

How the results depend on the processing

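Under the settings that changed the floor, the pseudocount, the filter or the scaling to all genes, each of the 10 genes that could be counted kept its direction. The count over 2-fold higher was 5 as deposited, against 17.8% of all genes counted. It was 4 with a pseudocount of 1 (14.6% of all), after rescaling to TPM (13.1% of all) and to equal upper quartiles (15.3% of all). In these settings Klrd1 fell below the limit. It was 3 over 4-fold and 0 over 20-fold. When 5 FPKM in either library was required, 8 genes were left, with a median log2 ratio of 1.29 and 0 genes over 2-fold lower, because Gzmc and Klrk1 were not counted. Over all genes with 5 FPKM in either library the median was 0.02, and 11.3% were over 2-fold lower. No gene of the set was over 20-fold lower either (0), against 2.35% of all genes counted. Under TPM the median was 0.49, against −0.40 over all genes counted. For the added scalings, chosen after seeing the data, the median was 1.39 relative to Cd3e, against 0.51 over all genes. There 8 genes were over 2-fold higher, against 29.4% of all. Relative to Foxp3 the median was −0.24, against −1.13 over all genes. With this scaling 4 genes were higher (15.5% of all), 3 over 2-fold higher (9.41% of all) and 2 over 2-fold lower (55.8% of all). Relative to Foxp3 the log2 ratio of Klrd1 was −0.14. Without Cd8a, 4 of 9 genes were over 2-fold higher and the median was 0.81, against 17.8% and 0.03 over all genes counted. Gzmc rests on 2 lung reads, and its log2 ratio ranged from −3.86 to −1.34 over the planned settings. Leaving out a replicate was not possible with 1 library per tissue. No paired analysis was possible because each tissue has 1 library. Depth limits statements on genes under about 1 FPKM, where a library holds few reads.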

Other observations

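Among genes near the members, chosen after their values were seen, several differed more than any member. Clec7a, which encodes the fungal receptor Dectin-1 of myeloid cells and lies in the NK gene complex 151 kb from the Klrk1 start, had 3.44 FPKM in spleen and 152 FPKM in lung. Olr1, a scavenger receptor gene of the same complex, had 0.0705 and 18.3 FPKM. Gabarapl1, an autophagy gene between them and Klrd1, differed less than Clec7a and Olr1 and less than Gzmb, at 5.24 and 13.0 FPKM. On the far side of Gzmk from Gzma, Esm1, best known from endothelial cells, had 0.407 and 7.17 FPKM. Mcidas, a regulator of multiciliated cells on the other side of Gzma, 107 kb from its start, was listed at 0 in spleen and had 1.15 FPKM in lung. Genes of other cell types thus lie beside the cytotoxic genes at these loci, and how they relate to the members was not tested.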
